A study of Mus musculus with 4 samples.

Results

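The genes described here encode the collagens, the laminin chains, the matrix metalloproteinases (MMPs) and the tissue inhibitors of metalloproteinases (TIMPs) on the array, together with fibronectin (Fn1). They were taken by gene symbol from the probe sets that the platform annotation assigns to a single gene, and Mmp8 was left out. The rule gave 74 of 18193 genes, with 144 probe sets in all: 42 collagen genes, 10 laminin genes, 17 MMP genes, 4 TIMP genes and Fn1. Each gene is given by its brightest probe set, the one with the highest mean log2 signal over all arrays.

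The study measured mouse liver RNA on 4 single-colour Affymetrix arrays and asked what follows when MET and EGFR signalling are lost together. All mice carried the genotype that the labels write as Metff/ff:ERCre+/+, a floxed Met gene with a Cre recombinase that tamoxifen activates, so that the controls carried it too. The delta MET + EGFRi mice had tamoxifen in corn oil on 5 days to delete exon 16 of Met, then 4 days of rest, then a diet with canertinib, an inhibitor of EGFR and its relatives, aimed at 80 mg/kg/day. Their livers were taken 7 or 10 days after that diet began. Control mice were littermates given corn oil alone, without tamoxifen or canertinib, with livers labelled day 7 and day 10 as well. Deletion, tamoxifen and canertinib therefore cannot be told apart. Livers were pooled within a group and day, from a number of animals that the labels do not give, and each pool went on 1 array, so that each group had 2 arrays that differ in day. The labels do not name the strain, the sex, the age or the promoter that drives the Cre.

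The matrix of the liver is thin in health. Fibrillar collagens surround the vessels and portal tracts and are made mainly by hepatic stellate cells and portal fibroblasts, while type IV collagen and laminins form basement membranes and also occur in the space of Disse beneath the sinusoidal endothelium. Hepatocytes secrete plasma fibronectin. MMPs are zinc proteases that cut matrix proteins, and TIMPs bind and block them. In fibrosis, type I and III collagen and Timp1 are typical genes that stellate cells switch on.

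The values are MAS5 signals, linear brightness per probe set, which the authors scaled to a common level. They ran from a median of 210.5 to 223.9 per array over all probe sets. Signals differ between probe sets for reasons other than the amount of RNA, so levels are compared only between arrays for the same probe set. Hepatocyte markers were bright on all arrays, with albumin (Alb) at 78531.5 and 74100.5 in delta MET + EGFRi livers and 75758.2 and 71295.3 in control livers at days 7 and 10. In bulk liver RNA, fewer cells of a type and less RNA per cell cannot be told apart.

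Of the 74 genes, 41 had a mean signal over the 4 arrays above 200: 27 collagens, 5 laminins, 4 MMPs, all 4 TIMPs and Fn1. By single array, 42 and 41 genes lay above 200 in delta MET + EGFRi livers and 46 and 43 in control livers at days 7 and 10. Nearest to that line were Col1a1 (mean 206.8) and Col15a1 (259.3) above it, and Col23a1 (199.8) and Mmp16 (182.7) below it. For the tests, genes were kept if their mean log2 signal exceeded the median over probe sets, at a signal of 204, which left 11993 genes and 40 of the 74: all those above 200 except Col1a1.

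No gene of the set passed the test between the groups over both days. In limma's test with Benjamini-Hochberg adjustment over all 11993 kept genes and a threshold of 0.05, 0 of 40 were called in either direction, where 0.375% of all kept genes were called higher and 0.283% lower in delta MET + EGFRi livers. At an unadjusted p under 0.05 there were 3 higher (Fn1, Mmp14 and Col6a4) and 3 lower (Col5a3, Col12a1 and Lamc3), 7.5% each way against 5.93% and 6.15% of all kept genes. The median log2 difference, delta MET + EGFRi minus control, was -0.05 over the 40 genes and -0.02 over all kept genes. With 2 arrays per group, changes of 2-fold are mostly beyond this test: on simulated arrays it recovered 5.25% of 2-fold and 58.5% of 4-fold changes. The labels describe no separate animals behind the arrays, so the p-values measure the spread between these arrays, days included.

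Day by day, with 1 array per side and hence no test, the 40 kept genes differed by less than 2-fold at day 7. Some of them differed more widely at day 10. This depends on the filter: without it, 6 genes of the set were at least 2-fold apart at day 7 and 16 at day 10. At day 7 none of the 40 genes was at least 2-fold higher or lower, where 4.6% and 5.16% of all kept genes were. At day 10 the count was 5 higher (Col16a1, Col6a4, Fn1, Mmp14 and Col4a1), or 12.5% against 5.84% of all kept genes, and 1 lower (Col5a3), or 2.5% against 4.91%. None was at least 2-fold higher or lower at both days, where 1.54% and 1.14% of all kept genes were. The median of the 40 genes was -0.28 at day 7 and -0.00028 at day 10, where that of all kept genes was -0.06 and 0.01. Both arrays of delta MET + EGFRi livers lay above both control arrays for 4 genes (10%, against 20.3% of all kept genes) and below them for 13 (32.5%, against 24.1%). By sign alone, 5 genes were higher at both days (12.5%, against 26.7%) and 16 were lower at both (40%, against 31.1%). At day 7 alone, 9 of the 40 genes were higher and 31 lower, where 5408 of all 11993 kept genes were higher and 6580 lower. At day 10 alone, 20 were higher and 20 lower, against 6063 and 5927 of all kept genes. The delta MET + EGFRi arrays of the 2 days were at least 2-fold apart for 0 of the 40 genes (7.61% of all kept genes), and the control arrays for 2, Col16a1 and Lama5 (5.14% of all kept genes). The differences at the 2 days had opposite signs and lay at least 2-fold from each other for 3 genes, Col16a1, Col4a1 and Col4a3 (7.5%, against 11.7% of all kept genes).

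**Figure D1:**
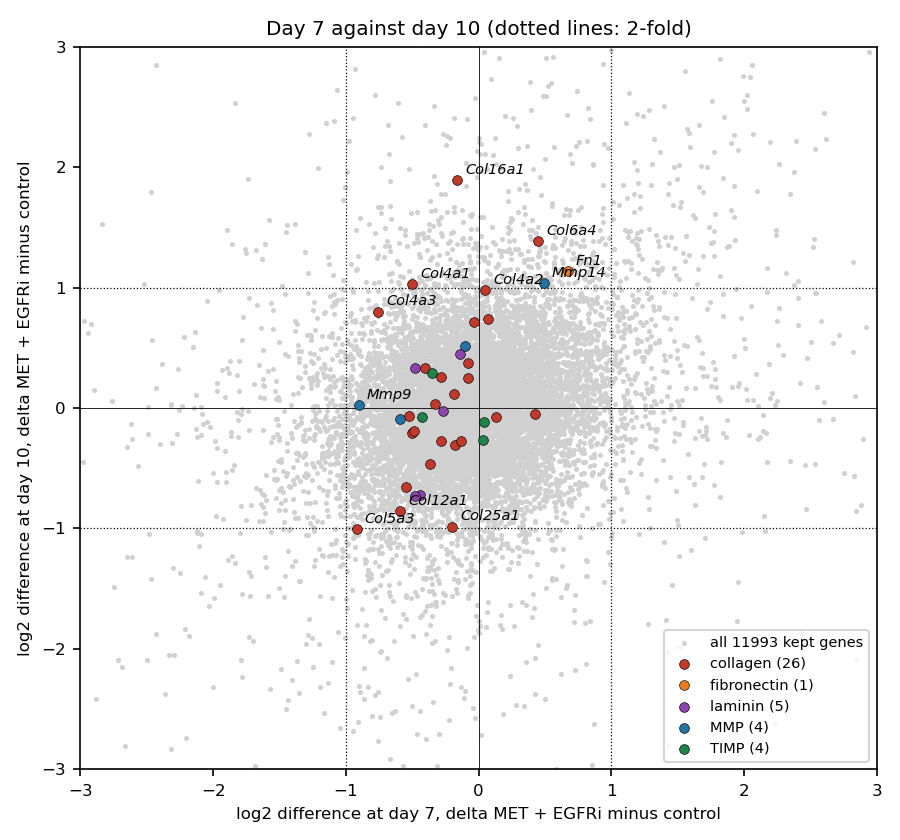
Log2 difference between delta MET + EGFRi and control livers at day 7 (horizontal) and day 10 (vertical), for the 40 kept matrix genes coloured by class and all 11993 kept genes in grey. Each axis compares 1 array with 1 array, dotted lines mark 2-fold, and 114 genes lie outside the axis limit of 3. The matrix genes stay within the 2-fold lines at day 7, and 6 cross them at day 10.

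Fibronectin, a glycoprotein that links collagen and integrins, was higher on both delta MET + EGFRi arrays. Its signal was 45920.8 at day 7 and 56530.3 at day 10 in delta MET + EGFRi livers, against 28831.2 and 25740.4 in control livers. The groups did not overlap, and the means were 51226 ± 7502 in delta MET + EGFRi and 27286 ± 2186 in control livers (SD, n = 2 arrays). The log2 difference of Fn1 was 0.90 ± 0.22 (SE), or 1.87-fold, and did not pass (adjusted p = 0.2 by limma). A dimmer Fn1 probe set showed a larger difference, with 1573.6 and 1643.4 in delta MET + EGFRi livers against 504.6 and 347.1 in control livers. In a limma fit over the 18922 singly named probe sets above the filter, this probe set rose by a log2 difference of 1.94 ± 0.26 (SE, adjusted p = 0.0456), the only 1 of the 55 probe sets of this gene set to pass, where 0.486% of all probe sets in that fit did. This call was lost with limma without the trend (adjusted p = 0.0976), when harvest day was a block (adjusted p = 0.110) and without any of 3 arrays, the day 7 control (0.0891), the day 10 control (0.203) and the day 10 delta MET + EGFRi array (0.0568). It held without the day 7 delta MET + EGFRi array, a fit in which a Col27a1 probe set and the brightest Fn1 probe set also passed. The log2 difference of the dimmer Fn1 probe set ran from 1.67 to 2.21 over these fits. Without the day 7 array of delta MET + EGFRi livers, the brightest probe set of Fn1 passed too (log2 difference 1.05, adjusted p = 0.00662), in a fit that called 3.89% of all kept genes, against 0.659% with all arrays. Over its 14 alternative settings the adjusted p of Fn1 ran from 0.00662 to 0.719.

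The fibrillar collagens, which form the tensile fibres of the matrix, had no kept gene that was higher at both days in delta MET + EGFRi livers. Of their 11 genes 7 were kept, 4 of which were lower at both days and 0 higher at both, with medians of -0.33 at day 7 and -0.08 at day 10. Of all kept genes 31.1% were lower and 26.7% higher at both days, with medians of -0.06 and 0.01. Col1a2, the second chain of type I collagen, had signals of 1596.7 and 1640.3 in delta MET + EGFRi livers and 1754.5 and 1982.1 in control livers. Both delta MET + EGFRi arrays lay just below the controls, with a log2 difference of -0.20 ± 0.20 (SE, adjusted p = 0.733). Col3a1, type III collagen, had 429.1 and 802.6 in delta MET + EGFRi livers and 607.4 and 924.1 in control livers. In both groups its day 10 array was the brighter, and the groups overlapped.

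Col1a1, the first chain of type I collagen, had a mean log2 signal under the filter and was not tested. Its signal was 30.6 and 155.9 in delta MET + EGFRi livers and 378.4 and 262.4 in control livers, the delta MET + EGFRi arrays lying below the controls, with the day 7 value under the floor of 64.8. Both control signals of Col1a1 lay above the filter signal of 204. The low delta MET + EGFRi signals thus brought its mean log2 signal under the filter. Its other probe set lay under the floor on all arrays. The clearest separation in the direction of lower signal was that of Col5a3, a minor chain of type V collagen, which had 913.8 and 841.7 in delta MET + EGFRi livers and 1728.6 and 1690.1 in control livers. The arrays of each group lay close together and the groups far apart, a 1.95-fold lower signal in delta MET + EGFRi livers (log2 difference -0.96 ± 0.20 SE) that did not pass (adjusted p = 0.142). Over 13 alternatives the log2 difference of Col5a3 ran from -1.02 to -0.75 and the adjusted p from 0.0719 to 0.507.

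Col27a1, a fibrillar collagen best known from cartilage, had 1631.2 and 1867.5 in delta MET + EGFRi livers and 2351.2 and 1950 in control livers. Its delta MET + EGFRi arrays were both lower, by a log2 difference of -0.29 ± 0.22 (SE, adjusted p = 0.636), and another of its probe sets gave -1.29 ± 0.28 in the fit over probe sets (SE, adjusted p = 0.161). Col5a1, the main chain of type V collagen, had 492.3 and 592.2 in delta MET + EGFRi livers and 617 and 578.1 in control livers. Col5a2, its partner chain, had 287.9 and 358.6 in delta MET + EGFRi livers and 294.9 and 218 in control livers. The groups overlapped for both, unlike those of Col5a3.

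Among basement membrane and network collagens, the ubiquitous type IV chains Col4a1 and Col4a2 differed at day 10 and little or the other way at day 7. Col4a1 had 791.3 and 1407 at days 7 and 10 in delta MET + EGFRi livers, against 1117.9 and 689.7 in control livers. Col4a2 had 608 and 828.8 in delta MET + EGFRi livers, against 587 and 420.3 in control livers. At day 10 both were thus higher in delta MET + EGFRi livers, Col4a1 2.04-fold and Col4a2 1.97-fold. At day 7 the log2 difference was -0.50 for Col4a1 and 0.05 for Col4a2. Another probe set of Col4a1 gave -0.07 at day 7 and 0.86 at day 10. Over both days neither gene passed (limma adjusted p = 0.813 for Col4a1 and 0.532 for Col4a2), and the control arrays themselves differed by day in the opposite sense. Markers of the sinusoidal endothelium, a cell type that also makes type IV collagen, had a median log2 difference of -0.17 at day 7 and 0.54 at day 10, with 0 of 12 passing. Their summed signal was 12211.3 and 18525.2 in delta MET + EGFRi livers and 13976.9 and 12115.3 in control livers, none of the markers lay under the floor on all arrays, and their part in the type IV collagen values was not tested.

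The 2 genes lie head to head on mouse chromosome 8 with overlapping promoter windows, which are shown because their day 10 differences were alike. RefSeq windows of assembly GRCm38.p6, from 250 bases before to 50 after each annotated start, were found for 54 of the 74 genes. Those of Col4a1 (chr8:11312777-11313076, minus strand) and Col4a2 (chr8:11312555-11312854, plus strand) overlap by 78 bases. The annotated starts lie 21 bases apart, at 11312826 for Col4a1 and 11312805 for Col4a2, so that the annotated 5′ ends overlap. The shared bases thus lie mostly within the 50 bases after each start. Each window is printed 5′ to 3′ on its gene's own strand, with the bases that both windows hold in capitals.
Col4a1: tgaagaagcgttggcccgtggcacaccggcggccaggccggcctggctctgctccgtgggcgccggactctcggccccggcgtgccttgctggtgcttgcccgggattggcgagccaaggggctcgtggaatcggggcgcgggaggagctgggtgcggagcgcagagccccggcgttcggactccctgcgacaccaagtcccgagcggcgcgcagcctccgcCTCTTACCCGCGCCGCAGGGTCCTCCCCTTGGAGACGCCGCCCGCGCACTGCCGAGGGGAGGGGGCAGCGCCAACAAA
Col4a2: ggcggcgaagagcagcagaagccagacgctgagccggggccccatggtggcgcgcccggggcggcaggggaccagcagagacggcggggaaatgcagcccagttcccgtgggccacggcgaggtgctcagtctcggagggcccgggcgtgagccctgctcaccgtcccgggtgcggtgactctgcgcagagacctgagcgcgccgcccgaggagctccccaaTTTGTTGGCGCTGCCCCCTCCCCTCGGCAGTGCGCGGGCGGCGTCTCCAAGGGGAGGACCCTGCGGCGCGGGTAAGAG
The shared stretch reads as the reverse complement in the other gene's window. Searched on both strands, the GC box GGGCGG matched 1 time in the Col4a1 and 3 times in the Col4a2 window, including 1 match in the shared bases. The CCAAT box (CCAAT) matched 1 time in each window and the TATA box (TATAAA) 0 times. Of 32851 windows of this length, 35.7% hold the GC box, 37.4% the CCAAT box and 13.6% the TATA box. No match of one motif overlapped a match of another in these windows.

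Of the other network collagens, Col4a3, a chain of the specialised type IV network of kidney and lung, had 284.2 and 567.1 in delta MET + EGFRi livers and 481.5 and 325.5 in control livers. It was the lower at day 7 and the higher at day 10 in delta MET + EGFRi livers, with a log2 difference over both days of 0.02. Col18a1, the source of endostatin and strongly expressed by hepatocytes, had 14023.1 and 8964.8 in delta MET + EGFRi livers and 15869.1 and 11095 in control livers. In both groups the day 7 array was the brighter, and the groups overlapped. Col8a1, a short-chain collagen of vessels, had 379.6 and 322.4 in delta MET + EGFRi livers and 555.2 and 506.8 in control livers, without overlap and without passing (log2 difference -0.60 ± 0.25 SE, adjusted p = 0.422). A dimmer Col8a1 probe set under the filter had 123 and 198.9 in delta MET + EGFRi livers and 82.1 and 199.6 in control livers, with overlap. Col4a6, a type IV chain of some epithelia and smooth muscle, had 606.7 and 758.2 in delta MET + EGFRi livers and 849.3 and 867.2 in control livers, also without overlap (adjusted p = 0.601). Over the 7 kept genes of this group, 1 was higher and 4 were lower at both days, with medians of -0.49 at day 7 and -0.19 at day 10. Of all kept genes 26.7% were higher and 31.1% lower at both days.

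The microfibril, fibril-associated and transmembrane collagens went in no common direction, with 2 of 12 kept genes higher and 3 lower at both days. Of all kept genes 26.7% were higher and 31.1% lower at both days. Col6a4, a chain of the beaded-filament type VI family, had 324.3 and 532.1 in delta MET + EGFRi livers and 237.6 and 203.3 in control livers. Its groups did not overlap, and the log2 difference was 0.92 ± 0.37 (SE, adjusted p = 0.398). A dimmer probe set of Col6a4 had 378 and 917.7 in delta MET + EGFRi livers and 74.6 and 152.6 in control livers, which in the fit over probe sets was a log2 difference of 2.46 ± 0.57 (SE, adjusted p = 0.183). The main chains of type VI collagen showed no such separation: Col6a2 had 980.2 and 1675.1 in delta MET + EGFRi livers and 1113.2 and 1545.8 in control livers, and the groups of Col6a1 and Col6a3 overlapped too.

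Col16a1, a fibril-associated collagen, had 325.2 and 340 in delta MET + EGFRi livers and 364.8 and 91.3 in control livers. Its day 10 difference of 3.72-fold therefore rests on the low day 10 control array, and without that array the log2 difference was -0.13. Col12a1, which binds the surface of type I fibres, had 1042.3 and 730.1 in delta MET + EGFRi livers and 1573.2 and 1322.2 in control livers, a log2 difference of -0.73 ± 0.26 (SE, adjusted p = 0.347). Col25a1, a transmembrane collagen, had 1029.3 and 527.6 in delta MET + EGFRi livers and 1182.3 and 1044 in control livers, a log2 difference of -0.20 at day 7 and -0.98 at day 10. For both genes all delta MET + EGFRi arrays lay below the controls. Col13a1, another transmembrane collagen, had 480.4 and 337.9 in delta MET + EGFRi livers and 357.6 and 348.7 in control livers, with only the day 7 array of delta MET + EGFRi livers above the controls. Col14a1, a fibril-associated collagen, had 900.6 and 1060.3 in delta MET + EGFRi livers and 1159.2 and 1467.4 in control livers, but another of its probe sets gave a log2 difference of 0.44 in the opposite direction.

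**Figure D2:**
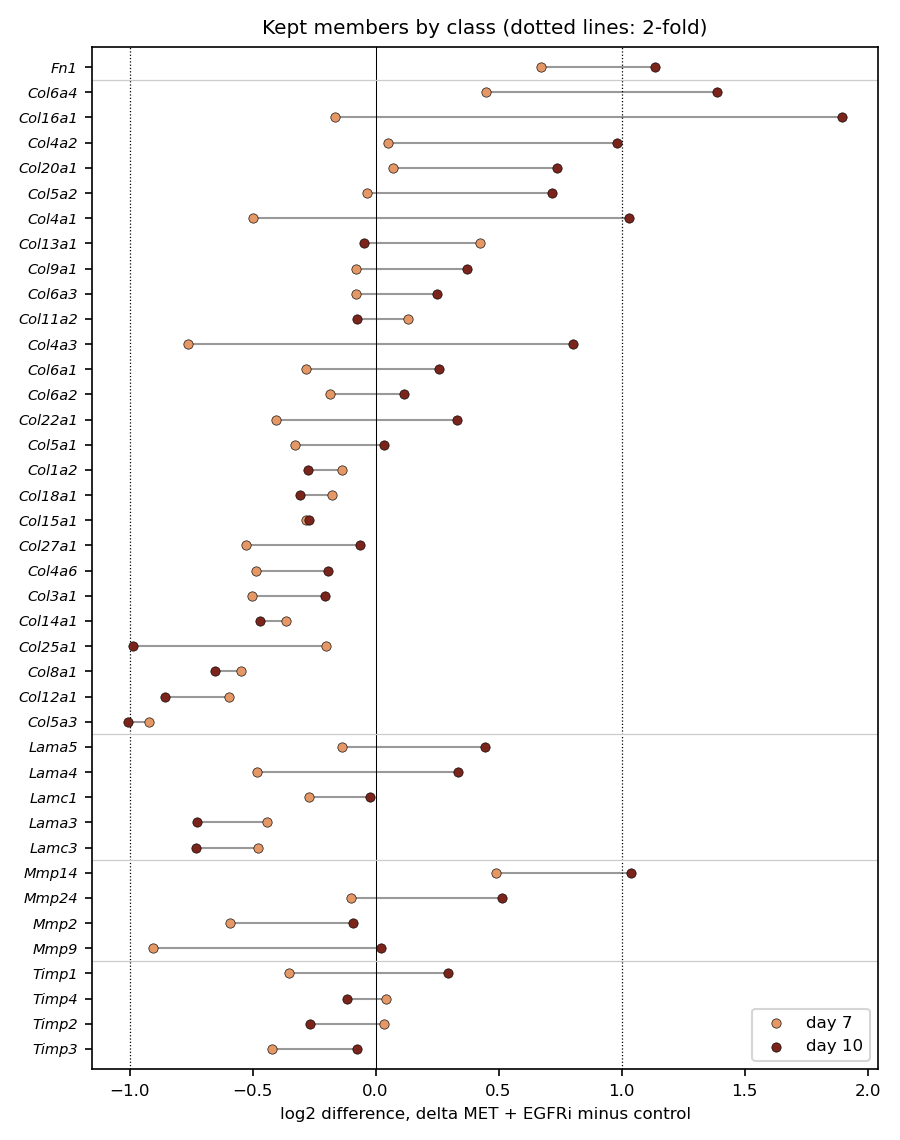
Log2 difference between delta MET + EGFRi and control livers for each of the 40 kept matrix genes, at day 7 and at day 10 (1 array per group and day), grouped by class. Dotted lines mark 2-fold. At both days 5 genes lie to the right of 0 and 16 to the left. Those with an unadjusted p under 0.05 by limma are Fn1, Col6a4 and Mmp14 on the right and Col5a3, Col12a1 and Lamc3 on the left.

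Laminins are heterotrimers of an alpha, a beta and a gamma chain. Of 10 laminin genes 5 were kept, of which 0 were higher and 3 lower at both days, with medians of -0.44 at day 7 and -0.02 at day 10, where 26.7% of all kept genes were higher and 31.1% lower at both days. Lamc3, a gamma chain, had 372.8 and 324.5 in delta MET + EGFRi livers and 518.4 and 537.8 in control livers, a log2 difference of -0.60 ± 0.25 (SE, adjusted p = 0.413). Lama3, the alpha chain of the epithelial anchoring laminin, had 359.6 and 313.3 in delta MET + EGFRi livers and 488.7 and 518.4 in control livers (log2 difference -0.58 ± 0.25 SE, adjusted p = 0.434). Neither gene's groups overlapped, and both differences were larger at day 10. Lama5, an alpha chain of many basement membranes, had 1630.9 and 1160.4 in delta MET + EGFRi livers and 1794.4 and 851.4 in control livers, so that its control arrays were themselves over 2-fold apart. Lamc1, the common gamma chain, had 490 and 538.7 in delta MET + EGFRi livers and 591.3 and 547.8 in control livers, a small gap without overlap (adjusted p = 0.835). All 3 beta chains on the array, Lamb1, Lamb2 and Lamb3, lay below the filter. Lamb3, which pairs with Lama3, had 99.9 and 78.7 in delta MET + EGFRi livers and 160.1 and 168.3 in control livers. Lamb1, the common beta chain, had 122.8 and 134.8 in delta MET + EGFRi livers and 78.2 and 45.9 in control livers. Another Lamb1 probe set of similar brightness gave a log2 difference of -0.79 at day 7 and 0.70 at day 10, so that these dim signals set no direction for Lamb1, and neither gene was tested.

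Among the MMPs only Mmp14, Mmp2, Mmp9 and Mmp24 passed the filter on dim genes. Mmp14, a membrane-bound protease that activates pro-MMP2, had 1937.5 and 2326.4 in delta MET + EGFRi livers and 1380 and 1131.4 in control livers. Its groups did not overlap, with means of 2132 ± 275 in delta MET + EGFRi and 1256 ± 176 in control livers (SD, n = 2 arrays). The log2 difference of Mmp14 was 0.76 ± 0.23 (SE), or 1.70-fold, and did not pass (adjusted p = 0.265, and from 0.125 to 0.709 over 13 alternatives). Of its dimmer probe sets, both under the filter, the first had 230.3 and 377 in delta MET + EGFRi livers and 61 and 55.6 in control livers, and the other had 45 and 168.6 against 197.7 and 138.7. The 3 probe sets of Mmp14 thus do not all point the same way.

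The promoter window of Mmp14 (RefSeq, GRCm38.p6, chr14:54431348-54431647, plus strand) is shown because Mmp14 was the only kept MMP whose signal was higher at both days. The capitals mark 2 adjacent matches of the GC box (GGGCGG).
Mmp14: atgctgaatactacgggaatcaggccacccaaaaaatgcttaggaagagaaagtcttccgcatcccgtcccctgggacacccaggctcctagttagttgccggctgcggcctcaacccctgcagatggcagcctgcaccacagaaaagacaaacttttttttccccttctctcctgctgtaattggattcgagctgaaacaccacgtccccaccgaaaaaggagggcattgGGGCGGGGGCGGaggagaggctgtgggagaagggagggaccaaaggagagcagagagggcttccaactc
The CCAAT box matched 2 times in this window, both as ATTGG, 1 of which shares 1 base with the first GC box, and the TATA box matched 0 times.

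Mmp2, the gelatinase that MMP14 activates and a product of stellate cells, had 470 and 594.3 in delta MET + EGFRi livers and 709.2 and 634 in control livers, lower without overlap (log2 difference -0.34 ± 0.24 SE, adjusted p = 0.618). A dimmer Mmp2 probe set under the filter had 218.8 and 64.5 in delta MET + EGFRi livers and 28.5 and 64.8 in control livers. Averaging the probe sets of Mmp2 turned its log2 difference to 0.27. Mmp9, a gelatinase stored in neutrophils and made by macrophages, had 277.9 and 449.6 in delta MET + EGFRi livers and 520.2 and 442.3 in control livers. Its day 7 value in delta MET + EGFRi livers was the lowest, and the groups overlapped. Of 7 kept neutrophil markers 2 rose by limma, S100a8 by a log2 difference of 3.35 (adjusted p = 0.00306) and S100a9 by 3.17 (adjusted p = 0.0307). Of all kept genes 0.375% were called higher. The 9 neutrophil markers on the array summed to 9498.1 and 9436 in delta MET + EGFRi livers against 3531.7 and 3553.1 in control livers, with Camp under the floor on all arrays. Their part in the Mmp9 values was not tested.

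Macrophage and Kupffer cell markers were higher at both days for 13 of 13 kept genes, where 26.7% of all kept genes were. Of these markers C1qc, Cd163 and Vsig4 rose by limma (adjusted p from 0.0174 to 0.0302), where 0.375% of all kept genes were called higher. The summed signal of the 14 markers on the array was 50353.5 and 50728.2 in delta MET + EGFRi livers, against 22333.7 and 12937.9 in control livers, and none lay under the floor on all arrays. Macrophages can express Fn1 and Mmp14, and the part of these cells in the Fn1 and Mmp14 values was not tested. Mmp12, the macrophage elastase, stayed dim, at 122.9 and 34.4 in delta MET + EGFRi livers and 30.6 and 26.2 in control livers.

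The other 13 MMP genes lay under the filter. Mmp7, matrilysin, an epithelial protease of bile ducts, had 61.9 and 95 in delta MET + EGFRi livers and 293.3 and 217.1 in control livers. It was the only gene of the set under the filter that was at least 2-fold lower at both days. Both of its control signals lay above the filter signal of 204, so that the low delta MET + EGFRi signals brought its mean under the filter. Cholangiocyte markers summed to 785.3 and 1715.8 in delta MET + EGFRi livers and 1462.4 and 1582.4 in control livers over 6 genes, with 0 of 3 kept markers passing and none of the 6 under the floor on all arrays, and their part in the Mmp7 value was not tested. In dim genes the 2 control arrays, which differ in day, could lie far apart, most of all for Mmp19 and Mmp23. Mmp19 had 54.2 and 348.7 and Mmp23 had 34.2 and 387.7 in control livers, where the delta MET + EGFRi livers had 175.4 and 37.6 for Mmp19 and 181.9 and 62.2 for Mmp23. Of the 34 genes not kept, 7 had control arrays at least 2-fold apart, and 7 lay under the floor on all arrays (Col9a2, Col10a1, Col17a1, Col24a1, Lama1, Mmp1b and Mmp11). Such shares were not counted over all genes that were not kept.

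The 4 TIMP genes were all kept, none passed, and by the brightest probe set the groups overlapped for each. Timp1, the inhibitor most used as a sign of stellate cell activation, had 218.2 and 398.1 in delta MET + EGFRi livers and 278.4 and 324.7 in control livers. The delta MET + EGFRi arrays lay on either side of the controls, with a log2 difference of -0.03 ± 0.39 (SE, adjusted p = 0.987). Timp3, which binds to the matrix itself, had 505.6 and 702.9 in delta MET + EGFRi livers and 677.7 and 741.1 in control livers (log2 difference -0.25 ± 0.25 SE, adjusted p = 0.738). Another Timp3 probe set of similar brightness had 571.4 and 510.2 in delta MET + EGFRi livers and 595.5 and 870.8 in control livers. Its groups did not overlap, and it did not pass in the limma fit over probe sets (log2 difference -0.42 ± 0.27 SE, adjusted p = 0.603). A further one gave -0.47 with overlap.

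Timp2, which takes part in the activation of pro-MMP2 by MMP14, had 429.2 and 406.3 in delta MET + EGFRi livers and 418.8 and 488.8 in control livers. Its probe sets disagreed: of the other 3 above the filter, 1 was higher by a log2 difference of 0.26 and 2 were lower, by -1.45 and -1.01, with adjusted p from 0.196 to 0.839. For the 2 lower probe sets the groups did not overlap. A dimmer Timp2 probe set under the filter was higher without overlap, with 171.3 and 283.4 in delta MET + EGFRi livers and 93.7 and 106.6 in control livers. Timp4 had 347.8 and 278.1 in delta MET + EGFRi livers and 337.5 and 301.2 in control livers, with overlapping groups and a log2 difference of -0.04 ± 0.31 (SE, adjusted p = 0.977).

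**Figure D3:**
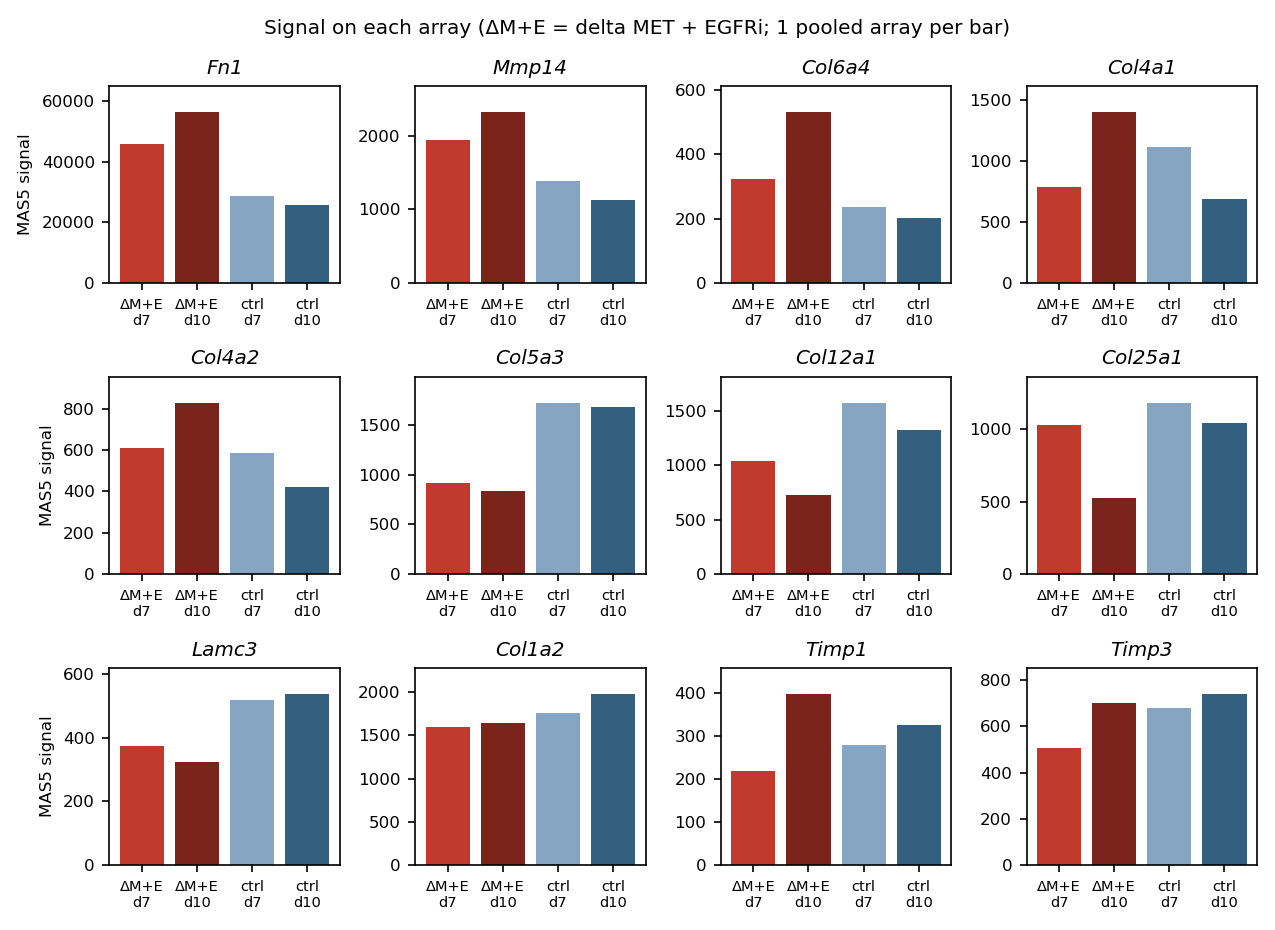
MAS5 signal on each of the 4 arrays for 12 matrix genes, with the delta MET + EGFRi arrays of days 7 and 10 (ΔM+E, red) left of the control arrays (blue); each bar is 1 array of pooled RNA and has no error bar. By the brightest probe sets shown, Fn1, Mmp14 and Col6a4 are higher and Col5a3, Col12a1, Col25a1, Lamc3 and Col1a2 lower on both delta MET + EGFRi arrays, while Timp1 and Timp3 overlap.

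Of 12 genes with over 1 probe set above the filter, the probe sets of 8 had log2 differences of the same sign and those of 4 (Col14a1, Col18a1, Col6a2 and Timp2) did not. Where the sign was the same the size could still differ widely, as for Fn1, Col6a4 and Col27a1. The positions of the probes in the transcripts were not used here.

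**Figure D4:**
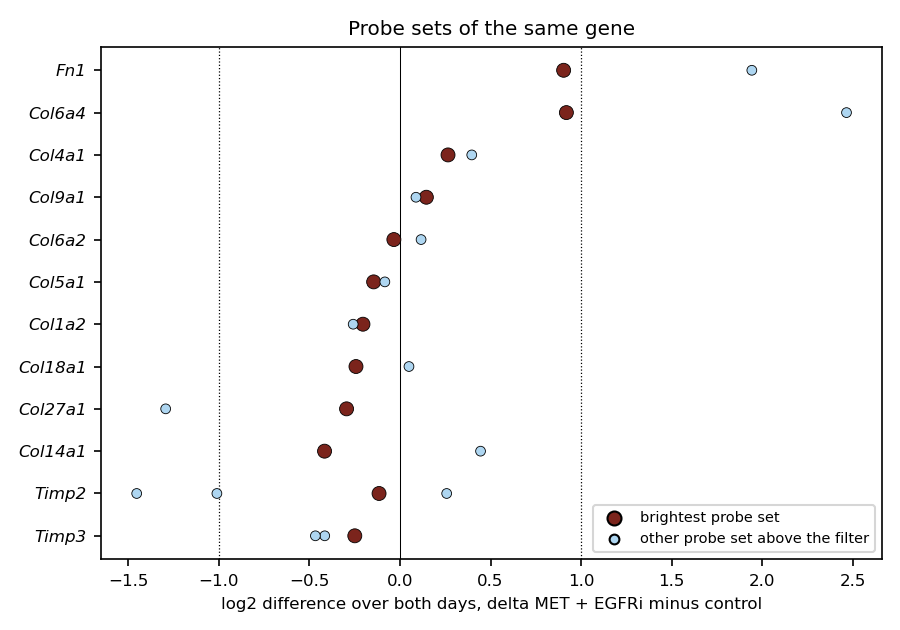
Log2 difference over both days for every probe set above the filter of the 12 matrix genes that have more than 1, with the brightest probe set in dark red and the others in light blue. The probe sets of Fn1 (0.90 and 1.94) and Col6a4 (0.92 and 2.46) share a direction, and those of Timp2 run from -1.45 to 0.26.

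Genes around the same pathway gave no call either. Of all kept genes 26.7% were higher and 31.1% lower at both days, with a median log2 difference of -0.02. Of the 13 kept genes for collagen processing and crosslinking 0 passed, with a median log2 difference of 0.17 and 5 higher against 2 lower at both days. P3h2, a collagen prolyl hydroxylase, had 484.5 and 489.1 in delta MET + EGFRi livers and 286.6 and 105.8 in control livers. Sparc, a collagen-binding glycoprotein, had a log2 difference of -0.64 (adjusted p = 0.492), and the procollagen protease Bmp1 one of 0.48 (adjusted p = 0.483). Among 16 other matrix proteins 0 passed and the median was -0.02, with 7 higher and 5 lower at both days. The lower ones, named after their values were seen, were Fbln1, Fbln5, Fmod, Hspg2 and Thbs2, with log2 differences from -0.70 (Fbln5) to -0.40 (Fbln1). Decorin (Dcn), a proteoglycan of collagen fibres that stellate cells make, had 11905.3 and 10838.6 in delta MET + EGFRi livers and 5197.7 and 5879.2 in control livers, without overlap (log2 difference 1.04 ± 0.21 SE, adjusted p = 0.121). Nidogen (Nid1), which bridges laminin and type IV collagen, had 363.7 and 697 in delta MET + EGFRi livers and 302.7 and 264.8 in control livers, and the heparan sulphate proteoglycan Agrn gave a log2 difference of 0.75 (adjusted p = 0.439).

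The 14 kept genes for other matrix proteases and inhibitors had a median of 0.18 and 0 calls, 5 being higher and 2 lower at both days, with the aggrecanase-type protease Adamts9 at -0.92 (adjusted p = 0.389), Adamts1 at 0.74 (adjusted p = 0.536) and the cathepsin Ctsl at 0.58 (adjusted p = 0.376). The 13 matrix receptors had a median of 0.10 and 0 calls, 4 being higher and 2 lower at both days. Of all kept genes 26.7% were higher and 31.1% lower at both days. The fibronectin receptor subunit Itga5 had 276.4 and 279.9 in delta MET + EGFRi livers and 554 and 503.6 in control livers, lower by a log2 difference of -0.93 ± 0.26 (SE, adjusted p = 0.247), whereas its partner Itgb1 stood at 0.56 (adjusted p = 0.356) and the hyaluronan receptor Cd44 at 0.54 (adjusted p = 0.484).

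Of the 13 kept genes of the TGF-beta and PDGF axis, the main pathways that drive collagen expression in stellate cells, 0 passed and the median was 0.16. By sign, 3 were higher and 3 lower at both days, beside 26.7% and 31.1% of all kept genes. The co-receptor Tgfbr3 had 1109 and 1078.5 in delta MET + EGFRi livers and 369.3 and 446.6 in control livers, a log2 difference of 1.43 ± 0.22 (SE, adjusted p = 0.0627). The TGF-beta induced matrix protein Tgfbi had 1795.5 and 2702.7 in delta MET + EGFRi livers and 698.3 and 1064 in control livers (log2 difference 1.35 ± 0.31 SE, adjusted p = 0.166). The inhibitory Smad7 had 186.8 and 529.9 in delta MET + EGFRi livers and 732.6 and 809.1 in control livers (log2 difference -1.29 ± 0.48 SE, adjusted p = 0.369). Markers of stellate cells and fibroblasts had 4 of 11 kept genes higher and 4 lower at both days, beside 26.7% and 31.1% of all kept genes. Of the kept ones 0 passed, with a median of -0.19, and none of the 14 markers lay under the floor on all arrays. Their summed signal was 20389.2 and 20136.8 in delta MET + EGFRi livers and 13869.1 and 15247.1 in control livers. Dcn made up the gap: without it the other 13 markers summed to 8483.9 and 9298.2 in delta MET + EGFRi livers and 8671.4 and 9367.9 in control livers. The contractile marker Acta2 had 869.6 and 1086.3 in delta MET + EGFRi livers and 1607.5 and 1109.6 in control livers. The part of these cells in the collagen values was not tested.

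The remaining kept genes of the set were Col6a1, Col6a3, Col9a1, Col11a2, Col15a1, Col20a1, Col22a1, Lama4 and Mmp24. None of them was 2-fold apart at either day. Their groups overlapped, except those of Col15a1, a collagen of basement membrane zones, whose delta MET + EGFRi arrays were both below the controls.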

How the data were processed

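Per the labels, 4 arrays of pooled liver RNA were compared, 1 per group and day. Per the submitters' processing notes the deposited intensity values (signals) were made with MAS5, whose version the sources used here do not give. Trimming 2% at each end left a mean of 500.0 on every array. All columns of the table belonged to the series.

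Control probe sets (64 of 45101) were dropped. Of the rest, 34945 had 1 gene symbol, 932 several and 9160 none, and only the first were used. By Entrez ID 99.4% of these matched RefSeq's table of GRCm38.p6, and 0 symbols changed. Signals below the 25th percentile (64.8) were raised to it before log2, and genes with a mean log2 of 7.67 or less were not tested. limma 3.58.1 (R 4.3.3) compared 2 arrays per group with an intensity trend, two-sided, with 2 residual degrees of freedom. The limma step was tested on 10 simulated sets of 11993 genes with 200 changed, where 5.56% of calls were false and sets without change gave 3 calls in all. Figures used Python 3.11.15 and matplotlib 3.10.9.

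Genes with printed array values were those passing the test or 2-fold apart at both days, the 4 highest and 4 lowest at each day, the 8 brightest, the TIMPs and Fn1, and up to 3 genes per related list. Col3a1, Col4a1, Col4a2, Col4a6, Col5a1, Col5a2, Col8a1, Col14a1, Lama3, Lamc1, Mmp2, Acta2 and the dim genes were added after their values were seen. The gene set and lists were chosen with earlier results of these data known. Day 7 minus day 10 differences of the 2 groups correlated across genes with r = -0.069, so harvest day gave no sign of pairing the arrays. Alternatives were other scalings, floors, filters, probe set rules, limma with no trend, harvest day as a block, each array left out, other thresholds and size rules.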

Additional observations from a re-analysis of the deposited data

Results flagged for a closer look

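Differences at day 7 and day 10 had opposite signs and lay at least 2-fold from each other for 3 of the 40 kept genes (7.5%), a smaller share than the 11.7% of all kept genes, and the change between the days was not tested, since each day has 1 array per group.

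For Col16a1 the effect at day 10 minus that at day 7 was 2.06 on the log2 scale, and the control array of day 10 was the one that stood apart (91.3, where the other 3 arrays had 325.2 to 364.8). For Col4a3 it was 1.56, with 284.2 and 567.1 in delta MET + EGFRi livers and 481.5 and 325.5 in control livers. For Col4a1 it was 1.53, and both groups contributed: the day 10 array was the brighter in delta MET + EGFRi livers and the dimmer in control livers.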

How the results depend on the processing

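No matrix gene passed by its brightest probe set in the alternatives run, except Fn1 without the day 7 array of delta MET + EGFRi livers, so that the count ran from 0 to 1 with 1 array left out. Such fits take their spread from the remaining pair and assume that the lone array varies alike. With day as a replicate block, 0 matrix genes passed by their brightest probe set, and the dimmer Fn1 probe set lost its call (adjusted p = 0.110), as it did in 5 of 6 fits added after seeing the data. The median log2 difference of the kept genes ran from -0.22 to -0.0018 over 11 alternatives. The count at least 2-fold apart at day 7 (0) became 1 with the floor at the 40th percentile, 6 without a filter, 3 with the mean of probe sets and 6 at 1.5-fold. At day 10 (6) it became 16 without a filter, 15 at 1.5-fold and 1 at 3-fold. The 41 genes above 200 became 29 to 55 under other scalings, probe set rules and thresholds.

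Of the log2 differences of single genes under alternatives, 319 kept sign and call, 24 changed sign, none of them past the threshold, and 2 newly passed, both for Fn1. The cause was not tested. With 1 array left out, the log2 difference ran from -0.13 to 1.86 for Col16a1, -0.57 to 0.080 for Col18a1, -0.80 to 0.099 for Col3a1, -0.15 to 0.68 for Col4a1, -0.48 to 0.52 for Col4a3, -0.42 to 0.35 for Col6a2, -0.064 to 0.44 for Col13a1, -0.38 to 0.69 for Lama5, -0.46 to 0.40 for Timp1 and -0.20 to 0.13 for Timp4. Averaging the probe sets of a gene gave 0.0094 for Col14a1, 0.041 for Col6a2 and 0.27 for Mmp2. Other probe sets gave 0.44 for Col14a1, 0.049 for Col18a1, 0.12 for Col6a2 and 0.26 for Timp2. Over all genes, limma's 79 calls became 0 without a filter, 42 without the trend, 42 with the mean of probe sets, 47 with day as a block, and 24 to 466 with 1 array left out. With 2 pooled arrays per group, precision is limited by their number, and signals near the floor carry no order.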
